A study of Homo sapiens with 9 samples.

Results

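The integrin and laminin subunits were taken as every gene whose symbol names an integrin alpha chain, an integrin beta chain or a laminin alpha, beta or gamma chain. The choice was made with earlier results of these data known, but its rule used symbols only and no measured value. It gave 38 of the 58381 genes in the deposited tables: 26 integrin chains (18 alpha and 8 beta) and 12 laminin chains (5 alpha, 4 beta and 3 gamma). Of these, 31 passed the low-count filter and were among the 17235 genes tested.

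RNA was sequenced from TC-32, an established human Ewing sarcoma cell line that carries the fusion oncogene EWSR1::FLI1, in 9 libraries of 3 groups with 3 libraries each. The groups are RFP (TC-32 with the lentiviral vector pLOC expressing red fluorescent protein), ETS1-Low and ETS1-High (TC-32 with pLOC carrying a synthetic human ETS1 cDNA, at a lower and a higher level of ETS1). The question was which genes the transcription factor ETS1 regulates while EWSR1::FLI1 is present. All groups keep the fusion, were transduced with virus from HEK-293T cells and were selected with puromycin. The ETS1 cells were derived as single-cell clones, and the labels give neither the number of clones behind a group nor whether the RFP cells were cloned. The level of ETS1 and the clone therefore cannot be told apart. Nothing says that the libraries of a group came from separate cultures, so the p-values may measure only a technical spread between these libraries. RNA from fewer cells of a kind and less RNA per cell cannot be told apart in bulk libraries either.

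Integrins are cell surface receptors made of 1 alpha and 1 beta chain that bind the extracellular matrix or other cells and link them, through adaptor proteins, to the actin cytoskeleton. The alpha chain largely sets the ligand: collagens, laminins, fibronectin and other proteins with an RGD motif, or adhesion molecules on leukocytes and vessels. Laminins are cross-shaped proteins of the basement membrane that assemble inside the cell from 1 alpha, 1 beta and 1 gamma chain before they are secreted. Several integrins are laminin receptors, so the 2 families meet at the basement membrane.

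The introduced gene matched the labels. ETS1 had 87, 95 and 105 counts in the RFP libraries, 400, 488 and 420 in the ETS1-Low libraries, and 765, 817 and 879 in the ETS1-High libraries, with no overlap between groups. Its log2 fold change was 3.26 ± 0.08 (adjusted p = 4.4e-36) in ETS1-High against RFP, 2.40 ± 0.09 (adjusted p = 4.29e-29) in ETS1-Low against RFP and 0.85 ± 0.07 (adjusted p = 8.11e-16) in ETS1-High against ETS1-Low. Here and below, log2 fold changes and Benjamini-Hochberg adjusted p-values over all tested genes come from the edgeR quasi-likelihood test. Calls are those with an adjusted p under 0.05. Values after ± on log2 fold changes are approximate standard errors. They are the size of the log2 fold change without a prior count, divided by the square root of the F statistic. For large changes with few counts in a group they can fall below counting error and overstate precision. Levels of 1 gene across libraries are CPM (counts scaled to library size) after TMM scaling, with SD over n = 3. The 12 Ewing sarcoma markers checked were all tested, with a summed level of 2901 to 3023 CPM in RFP, 4547 to 4621 in ETS1-Low and 4578 to 4586 in ETS1-High. CCND1 made up most of that sum, with 1548 CPM in RFP, 2518 in ETS1-Low and 2498 in ETS1-High. NPY1R went the other way, with 16.0 CPM in RFP, 0.770 in ETS1-Low and 4.93 in ETS1-High. So did GLI1, with 1.41, 0.561 and 0.711 CPM. The means of the remaining Ewing sarcoma markers were higher in both ETS1 groups than in RFP. The 8 leukocyte markers summed to 4.53 to 4.91 CPM in RFP, 1.38 to 1.88 in ETS1-Low and 2.53 to 3.11 in ETS1-High, with 6 of them under 1 CPM in every group and CD3E at 0 throughout. The 6 fibroblast markers summed to 122 to 133 CPM in RFP, 35.3 to 38.6 in ETS1-Low and 64.1 to 71.4 in ETS1-High, and THY1 made up most of the RFP sum with 75.7 CPM in RFP, 5.07 in ETS1-Low and 12.7 in ETS1-High. PDGFRA was highest in RFP too, at 12.8 CPM in RFP, 3.72 in ETS1-Low and 2.95 in ETS1-High, but COL1A1 had 39.3 CPM in RFP, 28.3 in ETS1-Low and 50.9 in ETS1-High, and DCN, LUM and FAP were highest in ETS1-High, at 0.914, 0.385 and 0.220 CPM. The 6 epithelial markers summed to 0.287 to 0.427 CPM in RFP, 1.45 to 1.96 in ETS1-Low and 2.36 to 3.52 in ETS1-High. KRT5 set that order, with 0.0208 CPM in RFP, 0.857 in ETS1-Low and 2.39 in ETS1-High. CDH1 and KRT19 were also highest in ETS1-High, at 0.0531 and 0.0223 CPM. EPCAM, KRT14 and CLDN4 were instead highest in ETS1-Low, at 0.169, 0.206 and 0.448 CPM, and lower in ETS1-High, at 0.0372, 0.0488 and 0.263. The 5 endothelial markers summed to 2.34 to 3.01, 3.59 to 3.99 and 4.97 to 5.56 CPM. That order is that of PECAM1, with 1.70 CPM in RFP, 3.69 in ETS1-Low and 5.16 in ETS1-High, while TEK had 0.766 CPM in RFP, 0.0378 in ETS1-Low and 0.00846 in ETS1-High, and VWF was at 0 in all ETS1 libraries. The part of these markers in the results below was not tested. Library totals ran from 39484687 to 46654716 counts, of which the 38 genes held 0.180% to 0.219%.

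Promoter sequences of the genes described most closely below are shown first, since ETS1 is a transcription factor of the ETS family, whose members recognise the core GGAA. RefSeq windows on GRCh38.p14 were matched by symbol for 26 of the 38 genes, with 33 start sites in all. The stretches shown lie in the 250 bases before a start site and leave out every base that lies in an annotated exon. They read 5′ to 3′ on the strand of the gene, and capitals mark GGAA or its reverse complement TTCC. ITGA4 (chr2:181457136-181457201, plus strand) and ITGA1 (chr5:52787666-52787915, plus strand) encode alpha chains that rose in ETS1-High. ITGA5 (chr12:54419267-54419516, minus strand) fell in both ETS1 groups, LAMA3 (chr18:23872770-23873019, plus strand) rose in ETS1-Low, and LAMB1 (chr7:108003214-108003411, minus strand) rose in both.
ITGA4: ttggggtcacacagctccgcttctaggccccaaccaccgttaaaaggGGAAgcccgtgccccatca
ITGA1: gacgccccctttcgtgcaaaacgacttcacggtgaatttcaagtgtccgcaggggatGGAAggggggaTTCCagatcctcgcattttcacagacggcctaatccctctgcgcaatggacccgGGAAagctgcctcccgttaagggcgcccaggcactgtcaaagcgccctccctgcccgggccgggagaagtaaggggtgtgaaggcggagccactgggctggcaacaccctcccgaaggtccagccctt
ITGA5: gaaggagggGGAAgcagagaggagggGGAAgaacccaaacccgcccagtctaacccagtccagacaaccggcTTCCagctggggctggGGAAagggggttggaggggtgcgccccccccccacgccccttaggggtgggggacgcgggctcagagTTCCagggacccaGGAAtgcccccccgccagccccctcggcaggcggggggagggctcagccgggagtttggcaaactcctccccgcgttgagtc
LAMA3: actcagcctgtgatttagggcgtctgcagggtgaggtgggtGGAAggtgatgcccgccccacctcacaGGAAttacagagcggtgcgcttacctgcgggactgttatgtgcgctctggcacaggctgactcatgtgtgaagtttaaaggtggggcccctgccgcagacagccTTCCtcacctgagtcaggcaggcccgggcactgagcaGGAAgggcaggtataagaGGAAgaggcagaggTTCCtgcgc
LAMB1: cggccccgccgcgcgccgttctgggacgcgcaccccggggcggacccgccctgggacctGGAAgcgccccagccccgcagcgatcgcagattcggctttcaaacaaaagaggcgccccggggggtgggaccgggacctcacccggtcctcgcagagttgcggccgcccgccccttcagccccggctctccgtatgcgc
The ITGA1 stretch is equally the start window of PELO, which begins at the same base on the same strand and is described with ITGA1 below. The LAMA3 stretch precedes a RefSeq start inside the gene, not its first annotated base. The core stood 1 time each in the ITGA4 and LAMB1 stretches, 3 times in that of ITGA1 and 6 times each in those of ITGA5 and LAMA3. The ITGA4 and LAMB1 stretches are only 66 and 198 bases long, while the other 3 span all 250. With exon bases included, the full windows of ITGA4 and LAMB1 held the core 2 and 3 times. Over all 35116 RefSeq windows of 250 bases, 92.7% held GGAA on either strand, with a median of 3 matches, and 9.14% held at least 6. A longer ETS site, CCGGAAGT, was found in 1 of the 33 windows of these genes (an ITGB5 start) and in 3.42% of all windows. The repeat GGAAGGAA, a short form of the GGAA repeats that EWSR1::FLI1 binds, was found in 2 of the 33 windows (ITGA10 and LAMB2) and in 3.06% of all. Both strands were searched, and GGAA is part of both longer motifs.

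Per gene length, ITGA5 and ITGA7 took smaller shares of the integrin alpha chain signal in the ETS1 groups and ITGA4 a larger one. ITGB2, ITGB1 and ITGB5 were the main beta chains in every group, and LAMB1, LAMB2 and LAMC1 the main laminin chains. The deposited FPKM values, which allow levels to be compared between genes, put ITGA5 first among alpha chains in RFP at 43.5 ± 1.45 FPKM, ahead of ITGAE at 37.3 ± 1.86 and ITGA7 at 33.8 ± 1.86. The spreads of ITGAE and ITGA7 touch, while ITGA5 lies above both. Summed over the 18 alpha chains the level was 141 ± 5.27 FPKM in RFP, 90.04 ± 2.15 in ETS1-Low, and 101 ± 1.64 in ETS1-High. The share of ITGA5 in that sum was 30.9% in RFP, 18.2% in ETS1-Low and 16.7% in ETS1-High, and the share of ITGA7 was 24.03% in RFP, 6.87% in ETS1-Low and 5.39% in ETS1-High. ITGA4 made up 0.186% in RFP, 7.23% in ETS1-Low and 12.95% in ETS1-High. In ETS1-High the order was ITGAE, ITGAV, ITGA5 and ITGA4 (32.1 ± 2.71, 17.8 ± 1.06, 16.9 ± 1.16 and 13.1 ± 0.626 FPKM), and ITGAV and ITGA5 did not differ beyond their spread. By CPM, which is not divided by length, ITGAE had 17.01 in ETS1-High, beside 113 for ITGAV and 53.3 for ITGA5. The high rank of ITGAE by FPKM thus rests on the transcript length used for it. The alpha sum and the shares of the other alpha chains carry that length too.

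The summed level of the beta chains was 403 ± 1.57 FPKM in RFP, 344 ± 3.80 in ETS1-Low, and 454 ± 1.50 in ETS1-High. ITGB2 held 50.7% in RFP, 42.4% in ETS1-Low and 60.6% in ETS1-High of that sum and was first in every group, followed by ITGB1 and ITGB5. The 12 laminin chains summed to 186 ± 9.55 FPKM in RFP, 202 ± 5.81 in ETS1-Low, and 206 ± 3.89 in ETS1-High. LAMB2 led in RFP with 36.7% of the laminin sum and LAMB1 led in both ETS1 groups, with 43.1% and 45.1%. LAMC1 held 27.2% in RFP, 19.3% in ETS1-Low and 16.1% in ETS1-High. FPKM depends on the transcript lengths used in the quantification, so shares between genes carry that choice.

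**Figure D1:**
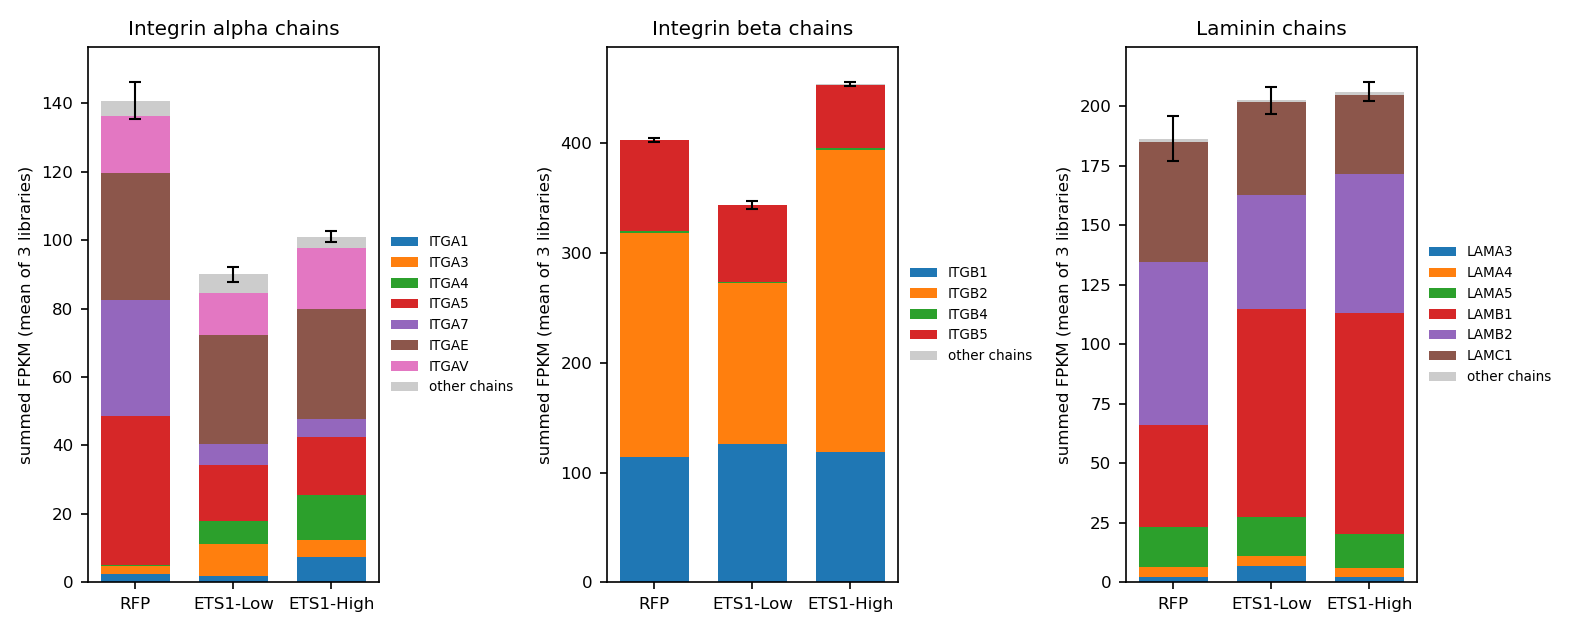
Stacked bars of deposited FPKM (y axis, linear from 0) for integrin alpha, integrin beta and laminin chains in RFP, ETS1-Low and ETS1-High, with the mean of 3 libraries per chain and the SD of the summed level as the error bar. The alpha sum is 141 in RFP against 101 in ETS1-High, and ITGB2 is the largest beta segment in each group.

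Most of these genes passed the test, as did most genes in these libraries, and the counts are read against that background. In ETS1-High against RFP 24 of the 31 tested chains were called, 12 higher and 12 lower, where 74.2% of all tested genes were called, 37% higher and 37.2% lower. In ETS1-Low against RFP 25 were called, 11 higher and 14 lower, against 74.1% of all genes, 37.9% higher and 36.2% lower. In ETS1-High against ETS1-Low 24 were called, 13 higher and 11 lower, against 59.2% of all genes, 29.9% higher and 29.3% lower. Calls of at least 2-fold numbered 14 of 31 in ETS1-High against RFP (8 higher, 6 lower), where 21% of all genes reached that size, 9.64% higher and 11.4% lower. They numbered 15 in ETS1-Low against RFP (6 higher, 9 lower), with a background of 20.6%, 8.47% higher and 12.2% lower. Between the ETS1 groups there were 9 (6 higher, 3 lower), with a background of 9.74%, 6.05% higher and 3.69% lower. The median log2 fold change of the tested chains was 0.07, -0.12 and 0.30 in these comparisons, beside -0.01, 0.01 and -4.67e-05 over all genes. The median size without sign was 0.95, 0.80 and 0.71, beside 0.40, 0.41 and 0.25. Of the 31 chains, 6 passed the filter with under 10 counts in every library of some group, so these counts describe the tested chains and are no support for a difference from other genes. The RFP libraries serve as controls for both ETS1 groups, whose values against RFP share their error.

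The library values of the groups did not overlap for 25 of 31 chains in ETS1-High against RFP, where 75.5% of all genes showed no overlap. The count was 29 in ETS1-Low against RFP (background 76%) and 25 in ETS1-High against ETS1-Low (background 63.2%). Against RFP 20 of the 31 chains (64.5%) were called in both ETS1 groups, near the 62.2% of all genes called in both. Of these 6 (19.4%) were higher in both, beside 28.2% of all genes, and 9 (29.0%) lower in both, beside 27.6%. The other 5 were called in opposite directions, which 6.41% of all genes showed. Those 5 were the alpha chains ITGA2, ITGA6 and ITGAV and the beta chains ITGB2 and ITGB8. ITGA4 and ITGA10 were called higher at each step from RFP to ETS1-Low to ETS1-High, and ITGA7, ITGB5 and LAMC1 were called lower at each step, beside 9.48% and 6.88% of all genes. In all 3 comparisons 14 chains were called, as were 38.9% of all genes.

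**Figure D2:**
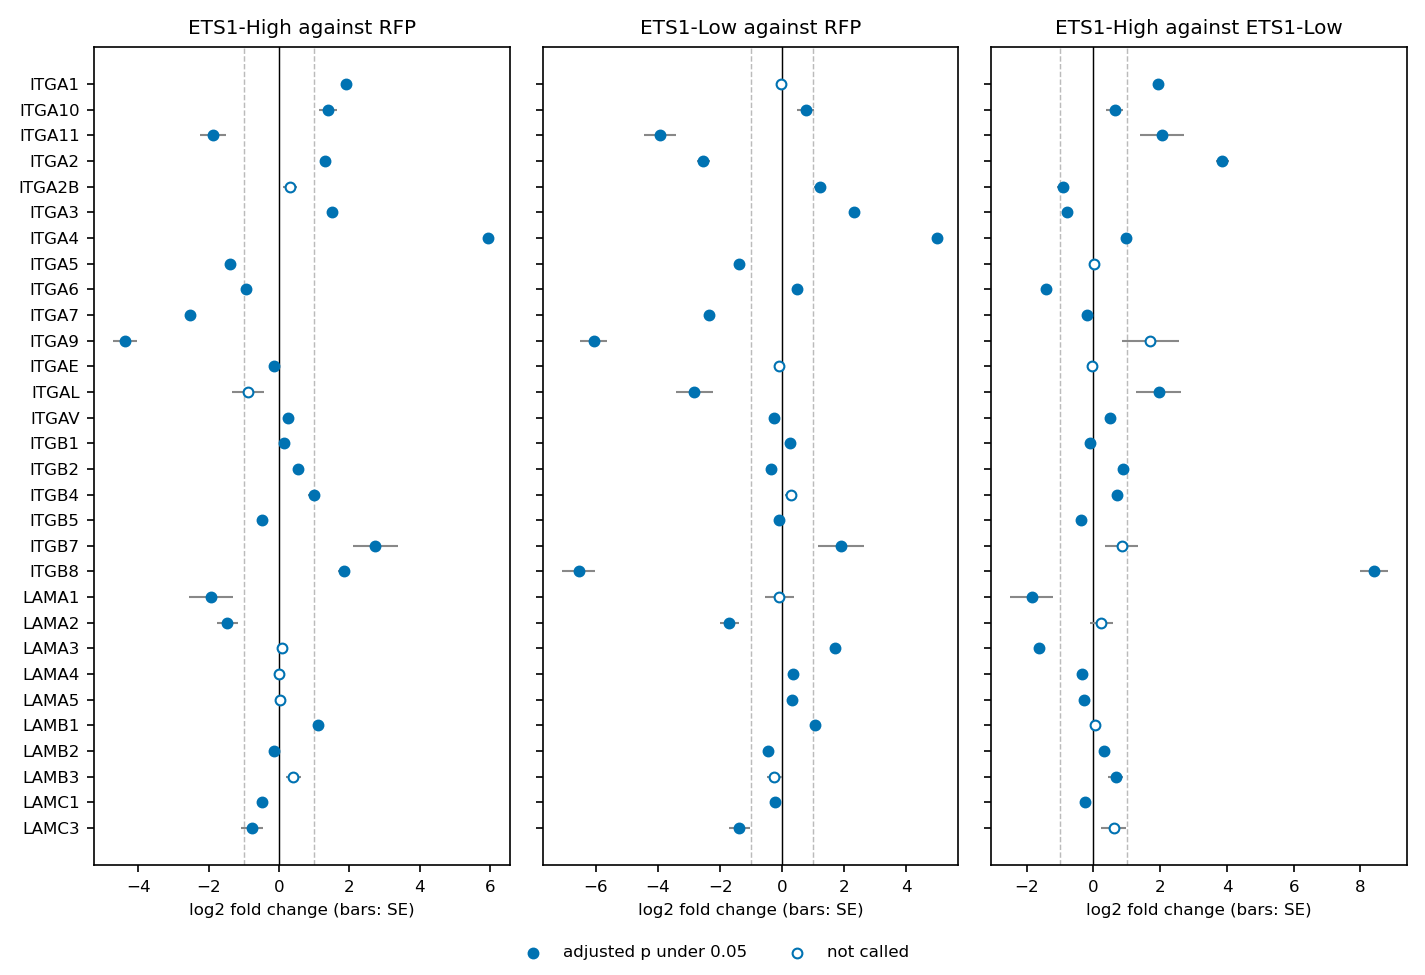
Log2 fold changes (x axis) of tested chains (y axis) in the 3 comparisons, with bars for the approximate standard error. Filled points are calls of the edgeR test, and dashed lines mark a 2-fold change. ITGA4 lies farthest to the right against RFP in ETS1-High, and the 5 chains called in opposite directions in the ETS1 groups have filled points on both sides of 0.

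The alpha chains that are receptors of laminins, ITGA3, ITGA6 and ITGA7, were all among those 14 chains called in every comparison, each with its own pattern. ITGA3 (chr17:50055968-50090481, plus strand in GRCh38, as for all gene positions here) encodes the alpha chain of the main laminin receptor of epithelia. It had 5.34, 6.53 and 5.51 CPM in the RFP libraries, 27.96, 28.7 and 29.4 in the ETS1-Low libraries, and 17.4, 16.5 and 15.5 in the ETS1-High libraries. The ETS1-Low libraries were highest and the RFP libraries lowest, with no overlap. ITGA3 rose by 1.51 ± 0.07 (adjusted p = 2.55e-25) on the log2 scale in ETS1-High and by 2.31 ± 0.07 (adjusted p = 4.51e-34) in ETS1-Low against RFP by edgeR, and was 1.74-fold lower in ETS1-High than in ETS1-Low (adjusted p = 5.63e-17).

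ITGA6 (chr2:172427354-172506459, plus strand) encodes a laminin receptor chain that pairs with ITGB1 or, in hemidesmosomes, with ITGB4. It had 10.8, 12.4 and 12.1 CPM in the RFP libraries, 15.8, 15.6 and 17.2 in the ETS1-Low libraries, and 5.99, 6.18 and 6.02 in the ETS1-High libraries. The ETS1-Low libraries were above and the ETS1-High libraries below every RFP library. The edgeR log2 fold change was -0.95 ± 0.07 (adjusted p = 2.62e-16) in ETS1-High against RFP, 0.46 ± 0.07 (adjusted p = 2.18e-08) in ETS1-Low against RFP and -1.42 ± 0.07 (adjusted p = 9.49e-23) between the ETS1 groups.

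ITGA7 (chr12:55684568-55716404, minus strand) encodes the laminin receptor chain best known from skeletal muscle. It had 56.8, 62.4 and 58.7 CPM in the RFP libraries, 11.3, 12.4 and 11.2 in the ETS1-Low libraries, and 10.3, 10.01 and 10.5 in the ETS1-High libraries. All ETS1 libraries lay far below the RFP libraries. ITGA7 fell by 2.53 ± 0.05 (adjusted p = 3.49e-41) in ETS1-High and by 2.34 ± 0.05 (adjusted p = 6.69e-40) in ETS1-Low, which is 5.78-fold and 5.08-fold. Its edgeR call between the ETS1 groups (-0.19 ± 0.06, adjusted p = 0.0078) ended without ETS1-Low replicate 2 (-0.13, adjusted p = 0.096) and with FPKM values (-0.16, adjusted p = 0.0592 by limma). ITGA7 shares exonic bases on the other strand with METTL7B and BLOC1S1, at 25.9 CPM in RFP, 30.5 in ETS1-Low and 26.6 in ETS1-High for the latter. The muscle markers MYOD1, MYOG, DES, ACTA1 and MYH3 summed to 2.49 to 3.53 CPM over all libraries, most of it MYH3 with 2.66 CPM in RFP, 2.72 in ETS1-Low and 2.89 in ETS1-High. MYOG had 11, 13 and 18 counts in the RFP libraries, 0, 0 and 0 in the ETS1-Low libraries, and 0, 0 and 0 in the ETS1-High libraries, and DES had 0.304 CPM in RFP, 0.203 in ETS1-Low and 0.170 in ETS1-High. The means of both were highest in RFP, as was that of ITGA7, and their part in its values was not tested.

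The 4 collagen receptor chains ITGA1, ITGA2, ITGA10 and ITGA11 were all called at least 2-fold in ETS1-High against RFP, 3 higher and 1 lower. Over all genes 21% were, 9.64% higher and 11.4% lower. Between the ETS1 groups all 4 were called higher, as were 29.9% of all genes, but the calls of ITGA10 and ITGA11 did not hold under every setting. These counts of 4 chains are a description, not a test. ITGA1 (chr5:52787916-52959209, plus strand) had 12.9, 13.2 and 12.5 CPM in the RFP libraries, 12.3, 12.9 and 12.5 in the ETS1-Low libraries, and 49.7, 48.1 and 46.8 in the ETS1-High libraries. The ETS1-High libraries stood apart, while those of ETS1-Low and RFP overlapped. ITGA1 rose by 1.90 ± 0.05 (adjusted p = 1.36e-36) in ETS1-High against RFP by edgeR, and its value in ETS1-Low was -0.03 ± 0.06 (adjusted p = 0.605). The ETS1 groups differed by 1.93 ± 0.05 (adjusted p = 9.56e-36). It shares exonic bases on the same strand with PELO, its counts were fractional in all 9 libraries, and PELO had 25.4 CPM in RFP, 22.8 in ETS1-Low and 31.9 in ETS1-High, with a log2 fold change of 0.33 in ETS1-High.

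ITGA2 (chr5:52989340-53094779, plus strand), the neighbour of ITGA1 on the same strand, encodes the other widespread collagen receptor chain. It had 1.72, 2.20 and 1.91 CPM in the RFP libraries, 0.450, 0.311 and 0.244 in the ETS1-Low libraries, and 4.90, 4.78 and 4.86 in the ETS1-High libraries. The ETS1-High libraries were above and the ETS1-Low libraries below those of RFP. ITGA2 rose by 1.32 ± 0.14 (adjusted p = 2.57e-12) in ETS1-High and fell by 2.54 ± 0.21 (adjusted p = 2.34e-15) in ETS1-Low, and the 2 ETS1 groups differed by 3.86 ± 0.19 (adjusted p = 1.09e-23) in edgeR. For the 40 expressed genes within 10 Mb on either side, the median was -0.23 in ETS1-High against RFP and -0.36 for ETS1-Low.

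ITGA10 and ITGA11, collagen receptor chains of cartilage and of mesenchymal cells, were at low counts. ITGA10 had 29, 16 and 20 counts in the RFP libraries, 31, 33 and 31 in the ETS1-Low libraries, and 63, 46 and 44 in the ETS1-High libraries. It rose by 1.40 ± 0.26 (adjusted p = 4.77e-06) in ETS1-High against RFP by edgeR, and by 0.76 ± 0.28 (adjusted p = 0.0124) in ETS1-Low, a call that ended without RFP replicate 2 (0.60, adjusted p = 0.0714). The step from ETS1-Low to ETS1-High (0.63 ± 0.25, adjusted p = 0.0238) was 0.39 (adjusted p = 0.237) without ETS1-High replicate 1, and was not called without ETS1-Low replicate 2 (0.60) or 3 (0.62). ITGA11 had 31, 35 and 29 counts in the RFP libraries, 3, 1 and 1 in the ETS1-Low libraries, and 6, 9 and 8 in the ETS1-High libraries. RFP was highest and ETS1-Low lowest, with no overlap. ITGA11 fell by 1.88 ± 0.37 (adjusted p = 1.06e-05) in ETS1-High, and its pooled count ratio put ETS1-Low 16.4-fold below RFP (95% exact counting interval 6.77 to 51.5; edgeR adjusted p = 6.84e-10). Such intervals cover counting error only. The call of ITGA11 between the ETS1 groups (2.06 ± 0.65, adjusted p = 0.00416 by edgeR) was lost with unfiltered FPKM values (0.087, adjusted p = 0.0624 by limma).

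Of the alpha chains that bind RGD proteins, ITGA5 fell in both ETS1 groups, and ITGAV changed in opposite directions by under 2-fold. ITGA5 (chr12:54395261-54419266, minus strand) encodes the alpha chain of the classical fibronectin receptor. It had 140.5, 139 and 140.3 CPM in the RFP libraries, 53.9, 52.5 and 52.4 in the ETS1-Low libraries, and 52.1, 53.8 and 53.9 in the ETS1-High libraries. The libraries of both ETS1 groups overlapped each other and lay far below RFP. ITGA5 fell by 1.39 ± 0.03 (adjusted p = 2.1e-38) in ETS1-High and 1.40 ± 0.03 (adjusted p = 2.5e-38) in ETS1-Low by edgeR, 2.62-fold and 2.64-fold, and the ETS1 groups differed by 0.01 ± 0.03 (adjusted p = 0.832). The median over 190 neighbouring genes was -0.01 and 0.03. Its ligand fibronectin, FN1, had 4600.3 CPM in RFP, 7563 in ETS1-Low and 6246 in ETS1-High.

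ITGAV (chr2:186590010-186680901, plus strand), the alpha chain shared by receptors of vitronectin and of latent TGF-beta, had 94.2, 96.7 and 92.8 CPM in the RFP libraries, 77.5, 79.4 and 80.9 in the ETS1-Low libraries, and 117, 110.0 and 111 in the ETS1-High libraries. Its edgeR log2 fold change was 0.25 ± 0.03 (adjusted p = 1.02e-09) in ETS1-High and -0.25 ± 0.03 (adjusted p = 1.43e-09) in ETS1-Low against RFP. The ETS1 groups differed by 0.51 ± 0.03 (adjusted p = 5.35e-19), with no overlap among the 3 groups. The value in ETS1-High against RFP was 0.09 (adjusted p = 0.151 by limma) from the FPKM values and no longer called. ITGA2B (chr17:44372180-44389649, minus strand), the alpha chain of the platelet fibrinogen receptor, had 0.873, 1.11 and 0.901 CPM in the RFP libraries, 2.06, 2.56 and 2.05 in the ETS1-Low libraries, and 1.07, 1.33 and 1.14 in the ETS1-High libraries. ITGA2B rose in ETS1-Low by 1.21 ± 0.18 (adjusted p = 6.41e-08) against RFP by edgeR, and its value in ETS1-High was 0.30 ± 0.20 (adjusted p = 0.165). Its value between the ETS1 groups was -0.91 ± 0.18 (adjusted p = 2.01e-05 by edgeR), a call lost with unfiltered FPKM values (-0.64, adjusted p = 0.111 by limma). The RFP and ETS1-High libraries overlapped. Of 5 platelet markers PF4, PPBP and GP9 were at 0 in every library, GP1BA was at or under 4 counts, and GP6, which is the platelet collagen receptor, had 0.229 ± 0.0321 CPM in RFP, 0.627 ± 0.129 in ETS1-Low and 0.547 ± 0.165 in ETS1-High. The list summed to 0.192 to 0.328 CPM in RFP, 0.513 to 0.767 in ETS1-Low and 0.356 to 0.649 in ETS1-High, and its part in the values of ITGA2B was not tested. ITGA8 was not tested: it had 11, 17 and 9 counts in the RFP libraries, 0, 0 and 0 in the ETS1-Low libraries, and 0, 0 and 0 in the ETS1-High libraries. Against a floor of 3 counts over the group, RFP was at least 11.1-fold higher than ETS1-High and at least 10.6-fold higher than ETS1-Low.

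The related alpha chains ITGA4 and ITGA9, which bind VCAM1, tenascin C and fibronectin splice forms, moved in opposite directions. ITGA4 (chr2:181457202-181538940, plus strand) is best known from leukocytes and neural crest cells. It had 0.935, 0.811 and 0.594 CPM in the RFP libraries, 25.4, 24.7 and 24.2 in the ETS1-Low libraries, and 49.2, 48.1 and 47.7 in the ETS1-High libraries. Every ETS1-High library was above every ETS1-Low library, and RFP was under 1 CPM throughout. ITGA4 rose by 5.95 ± 0.08 (adjusted p = 1.24e-48) in ETS1-High and 4.99 ± 0.09 (adjusted p = 1.38e-43) in ETS1-Low by edgeR, 61.8-fold and 31.7-fold, and ETS1-High was 1.95-fold above ETS1-Low (adjusted p = 8.36e-24). The 78 neighbouring genes had medians of 0.67 (ETS1-High) and 0.40 (ETS1-Low). CERKL, which overlaps ITGA4 exons on the other strand, had 0.132 CPM in RFP, 0.190 in ETS1-Low and 0.465 in ETS1-High, and the leukocyte marker PTPRC had 4, 0 and 0 counts in the RFP libraries, 0, 0 and 1 in the ETS1-Low libraries, and 6, 5 and 2 in the ETS1-High libraries. The tested leukocyte markers were highest in RFP: CORO1A had 3.32 CPM in RFP, 1.17 in ETS1-Low and 2.25 in ETS1-High, and CD14 had 1.20 CPM in RFP, 0.203 in ETS1-Low and 0.272 in ETS1-High. The ligand VCAM1 had 1, 1 and 3 counts in the RFP libraries, 0, 0 and 0 in the ETS1-Low libraries, and 0, 0 and 0 in the ETS1-High libraries. Tenascin C, encoded by TNC, was abundant, with 1893 CPM in RFP, 1159 in ETS1-Low and 2730 in ETS1-High.

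ITGA9 had 89, 95 and 79 counts in the RFP libraries, 2, 1 and 0 in the ETS1-Low libraries, and 5, 4 and 2 in the ETS1-High libraries. RFP held nearly all of its reads. ITGA9 fell by 4.38 ± 0.35 (adjusted p = 3.11e-16) in ETS1-High by edgeR, and the pooled counts put ETS1-Low 75.4-fold below RFP (95% exact counting interval 25.5 to 368; adjusted p = 9.1e-18). The ETS1 groups differed by 1.70 ± 0.85 (adjusted p = 0.0611), which became a call without ETS1-Low replicate 1 (2.61, adjusted p = 0.0271) or ETS1-High replicate 3 (2.02, adjusted p = 0.0332). The antisense gene ITGA9-AS1 had 0.605 CPM in RFP, 0.535 in ETS1-Low and 0.587 in ETS1-High.

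**Figure D3:**
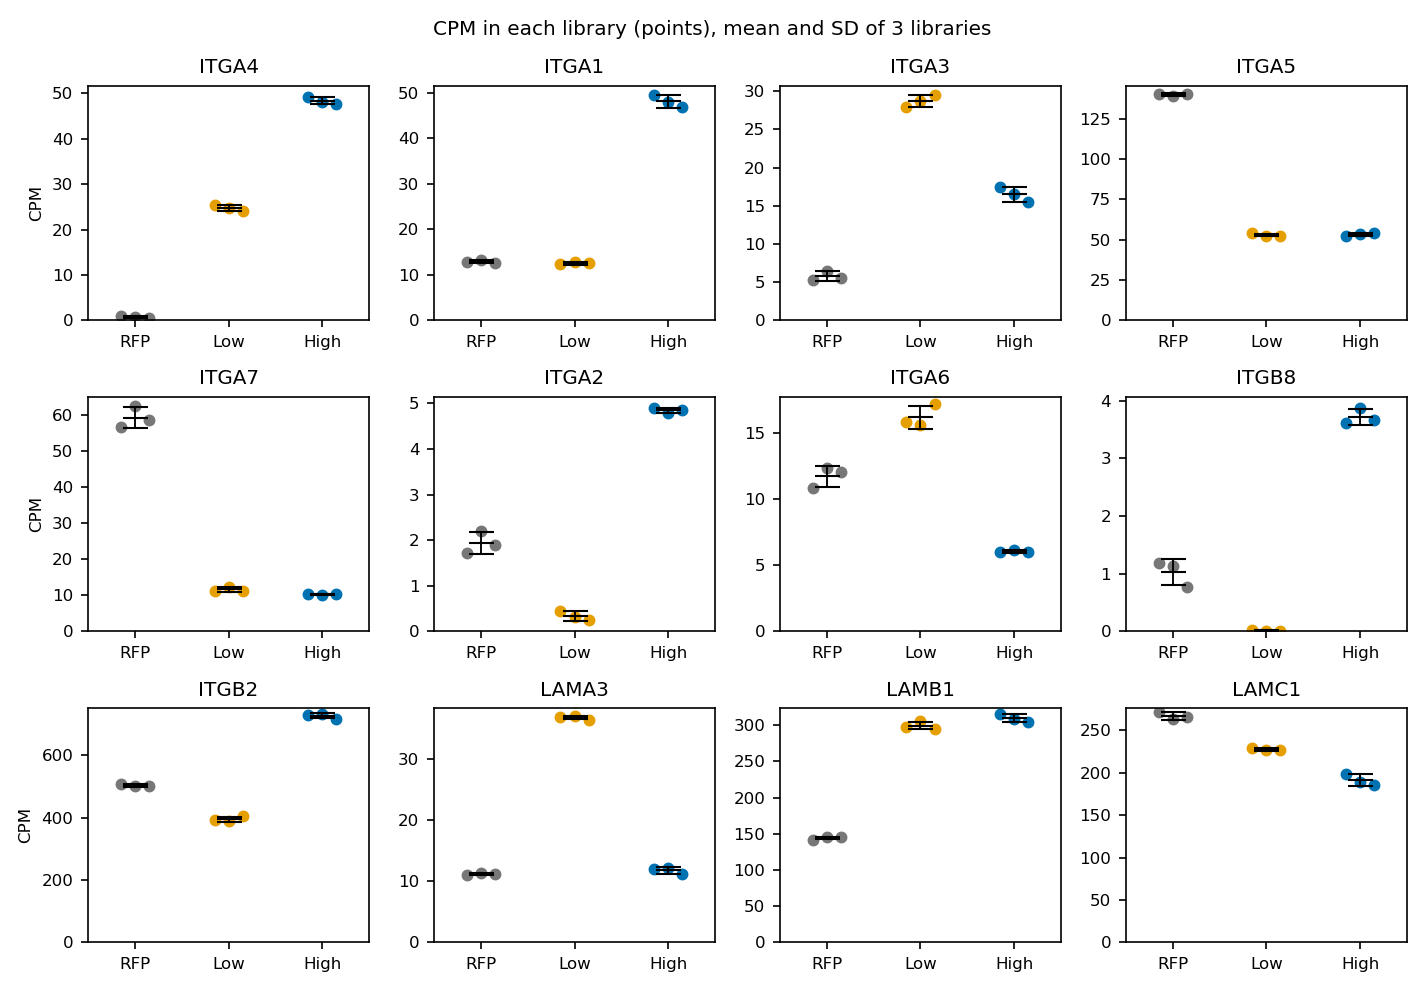
CPM of 12 chains in each library, with 1 panel per gene, points for the 3 libraries of a group and bars for their mean and SD, on linear axes that start at 0. ITGA4 goes from under 1 CPM in RFP to 47.7 to 49.2 CPM in ETS1-High, and ITGA1, ITGA2 and ITGB8 are highest in ETS1-High.

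The alpha chains of leukocyte integrins were low apart from ITGAE. ITGAE, which binds E-cadherin in lymphocytes, had 18.6 ± 0.750 CPM in RFP, 17.4 ± 0.480 in ETS1-Low and 17.01 ± 1.30 in ETS1-High. Its call in ETS1-High against RFP (-0.13 ± 0.06, adjusted p = 0.041 by edgeR) ended without RFP replicate 2 (-0.10), ETS1-Low replicate 3 (-0.13) or ETS1-High replicate 1 (-0.11) or 2 (-0.08), with the DESeq2 Wald test (adjusted p = 0.0635) and with no count filter (adjusted p = 0.0901). In ETS1-Low it was -0.09 ± 0.06 (adjusted p = 0.139) by edgeR, but a call from the FPKM values (-0.22, adjusted p = 0.00514 by limma). HASPIN lies inside ITGAE on the other strand with 21.5 CPM in RFP, 19.97 in ETS1-Low and 17.4 in ETS1-High, and the files do not say whether the counting used strand. ITGAL, the alpha chain of the receptor for ICAM1, had 18, 22 and 20 counts in the RFP libraries, 0, 7 and 0 in the ETS1-Low libraries, and 13, 7 and 9 in the ETS1-High libraries. All its ETS1-Low reads came from replicate 2. ITGAL fell by 2.83 ± 0.60 (adjusted p = 4.38e-05) in ETS1-Low by edgeR, and by 7.21 without that library, a fitted value that rests on a group at 0. Between the ETS1 groups ITGAL was called higher in ETS1-High (1.95 ± 0.68, adjusted p = 0.0106), but not without ETS1-Low replicate 1 (1.45) or 3 (1.40) or ETS1-High replicate 1 (1.62), and it was 6.33 without ETS1-Low replicate 2. In ETS1-High against RFP ITGAL was not called (-0.88 ± 0.45, adjusted p = 0.0716), and became a call without ETS1-Low replicate 2 (-0.87, adjusted p = 0.0455) or ETS1-High replicate 1 (-1.21, adjusted p = 0.0387). ITGAM had 8, 9 and 4 counts in the RFP libraries, 6, 0 and 0 in the ETS1-Low libraries, and 3, 1 and 6 in the ETS1-High libraries and was not tested. ITGAX and ITGAD were at or under 3 counts in every library.

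All 6 tested beta chains were called in ETS1-High against RFP, 5 higher and 1 lower, where 74.2% of all genes were called, 37% higher. With the FPKM values 1 of the 5 higher calls, that of ITGB4, changed sign and that of ITGB1 was lost. ITGB7 and ITGB8 did not reach the mean of 1 FPKM needed there and were not tested. Without that filter the ITGB7 call was lost as well (0.25, adjusted p = 0.0638 by limma). ITGB2 (chr21:44885953-44931989, minus strand) encodes the beta chain of the leukocyte integrins. It had 507, 501 and 500.0 CPM in the RFP libraries, 391, 389.7 and 404 in the ETS1-Low libraries, and 729, 733 and 717 in the ETS1-High libraries. ETS1-High was highest and ETS1-Low lowest, with no overlap. ITGB2 rose by 0.53 ± 0.03 (adjusted p = 1.24e-22) in ETS1-High and fell by 0.35 ± 0.03 (adjusted p = 1.62e-15) in ETS1-Low against RFP by edgeR. The ETS1 groups differed by 0.88 ± 0.03 (adjusted p = 4.73e-31). Its known alpha partners ITGAL, ITGAM, ITGAX and ITGAD reached at most 22 counts in any library. The antisense gene ITGB2-AS1 overlaps it and had 56.5 CPM in RFP, 95.6 in ETS1-Low and 86.2 in ETS1-High, so its change in ETS1-Low went the other way (0.76), and without stated strand use reads of the 2 genes cannot be told apart.

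ITGB8 (chr7:20330702-20415754, plus strand), which pairs with ITGAV to activate TGF-beta, had 57, 53 and 38 counts in the RFP libraries, 1, 0 and 0 in the ETS1-Low libraries, and 142, 174 and 164 in the ETS1-High libraries. It was all but absent from ETS1-Low, with 1 read in 3 libraries, and highest in ETS1-High. ITGB8 rose by 1.85 ± 0.17 (adjusted p = 8.06e-14) in ETS1-High by edgeR. By pooled counts it was 127-fold lower in ETS1-Low than in RFP (95% exact counting interval 22.5 to 5064; adjusted p = 2.06e-16). Its ETS1-High level was 460.4-fold that of ETS1-Low (82.2 to 18224; adjusted p = 1.82e-24).

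ITGB1, the common beta partner of most matrix receptors, and ITGB5, a partner of ITGAV, had smaller fold changes. ITGB1 had 334 ± 11.5 CPM in RFP, 398 ± 4.45 in ETS1-Low and 370.2 ± 4.24 in ETS1-High. Its edgeR log2 fold change was 0.15 ± 0.03 (adjusted p = 1.57e-05) in ETS1-High and 0.25 ± 0.03 (adjusted p = 8.81e-11) in ETS1-Low against RFP, and the first was 0.06 (adjusted p = 0.0769 by limma) from the FPKM values. The ETS1 groups differed by -0.11 ± 0.03 (adjusted p = 0.00175). ITGB5 had 149 ± 1.75 CPM in RFP, 137 ± 2.42 in ETS1-Low and 107 ± 2.08 in ETS1-High. It fell by 0.48 ± 0.03 (adjusted p = 8.95e-20) in ETS1-High and 0.12 ± 0.03 (adjusted p = 0.000541) in ETS1-Low. ITGB5 was lower in ETS1-High than in ETS1-Low as well, at -0.36 ± 0.03, adjusted p = 7.86e-15.

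ITGB4, the beta partner of ITGA6 in hemidesmosomes, had 62, 60 and 68 counts in the RFP libraries, 56, 80 and 62 in the ETS1-Low libraries, and 107, 126 and 104 in the ETS1-High libraries. The ETS1-High libraries were above all others. ITGB4 was called higher in ETS1-High against RFP by edgeR (0.98 ± 0.16, adjusted p = 2.56e-07), but the FPKM values gave the other direction (-0.17, adjusted p = 0.409 by limma). ITGB7, the beta partner of ITGA4 and ITGAE in lymphocytes, had 1, 3 and 1 counts in the RFP libraries, 3, 7 and 7 in the ETS1-Low libraries, and 9, 11 and 12 in the ETS1-High libraries. Its pooled counts were 7.13-fold higher in ETS1-High than in RFP (95% exact counting interval 2.76 to 23.5; edgeR adjusted p = 0.000101) and 3.95-fold higher in ETS1-Low (1.40 to 13.7; adjusted p = 0.0135). The ETS1-Low call ended without RFP replicate 1 (fitted log2 1.64) or 3 (1.63) or ETS1-Low replicate 3 (1.71). ZNF740 overlaps ITGB7 on the other strand with 59.6 CPM in RFP, 60.8 in ETS1-Low and 58.9 in ETS1-High. ITGB3 and ITGB6 were at or under 3 counts in every library, as was the laminin chain LAMB4.

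Among the laminin chains 6 of 11 tested (54.5%) were called in ETS1-High against RFP, under the 74.2% of all genes, with 1 higher and 5 lower beside 37% and 37.2%. In ETS1-Low against RFP 8 were called (72.7%), near the 74.1% of all genes, 4 higher and 4 lower. LAMB1 (chr7:107923799-108003213, minus strand), the most widespread beta chain, had 142, 145 and 145 CPM in the RFP libraries, 298, 305 and 295 in the ETS1-Low libraries, and 315, 309 and 304 in the ETS1-High libraries. All ETS1 libraries were about 2-fold above RFP and the ETS1 groups overlapped. LAMB1 rose by 1.10 ± 0.03 (adjusted p = 1.99e-35) in ETS1-High and 1.05 ± 0.03 (adjusted p = 1.64e-34) in ETS1-Low by edgeR, 2.14-fold and 2.08-fold. The difference between the ETS1 groups was 0.05 ± 0.03 (adjusted p = 0.155), a call with the DESeq2 Wald test (adjusted p = 0.0418). DLD, which overlaps LAMB1 on the other strand, had 129 CPM in RFP, 116 in ETS1-Low and 117 in ETS1-High.

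LAMA3 (chr18:23689453-23956222, plus strand) encodes the alpha chain of the laminin that anchors epidermis through hemidesmosomes. It had 11.01, 11.4 and 11.2 CPM in the RFP libraries, 36.9, 36.98 and 36.5 in the ETS1-Low libraries, and 11.9, 12.2 and 11.2 in the ETS1-High libraries. ETS1-Low stood apart, and the libraries of ETS1-High and RFP overlapped. LAMA3 rose in ETS1-Low by 1.72 ± 0.05 (adjusted p = 7.7e-33) against RFP by edgeR, 3.28-fold, while ETS1-High differed from RFP by 0.07 ± 0.06 (adjusted p = 0.276). LAMA3 was 3.13-fold lower in ETS1-High than in ETS1-Low (adjusted p = 2.7e-31). LAMB3, which assembles with LAMA3 in that laminin, was low. It had 0.876 ± 0.0624 CPM in RFP, 0.736 ± 0.0613 in ETS1-Low and 1.17 ± 0.140 in ETS1-High and was called by edgeR between the ETS1 groups (0.66 ± 0.23, adjusted p = 0.0106). Its value in ETS1-High against RFP was 0.41 ± 0.22 (adjusted p = 0.0825), and unfiltered FPKM values made it a call (0.42, adjusted p = 0.00055 by limma).

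The laminin alpha chains LAMA1 and LAMA2, known from the early embryo and from muscle and nerve, were at low counts. LAMA1 had 7, 13 and 11 counts in the RFP libraries, 11, 5 and 9 in the ETS1-Low libraries, and 1, 4 and 2 in the ETS1-High libraries. LAMA1 fell by 1.94 ± 0.62 (adjusted p = 0.00347 by edgeR) in ETS1-High against RFP. That call was lost with unfiltered FPKM values (-0.047, adjusted p = 0.122 by limma). Its lower level in ETS1-High than in ETS1-Low (-1.85 ± 0.64, adjusted p = 0.00883 by edgeR) was no call without ETS1-Low replicate 1 (-1.55, adjusted p = 0.0631). LAMA2 had 43, 62 and 43 counts in the RFP libraries, 7, 16 and 16 in the ETS1-Low libraries, and 12, 19 and 17 in the ETS1-High libraries. The ETS1 groups overlapped and lay below RFP. LAMA2 fell by 1.47 ± 0.29 (adjusted p = 1.5e-05) in ETS1-High and 1.71 ± 0.30 (adjusted p = 1.99e-06) in ETS1-Low by edgeR.

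LAMA4 and LAMA5, alpha chains of vessel walls and of most mature basement membranes, were called higher in ETS1-Low than in RFP from counts but not from FPKM. LAMA4 had 16.5 ± 1.74 CPM in RFP, 20.97 ± 1.84 in ETS1-Low and 16.4 ± 0.724 in ETS1-High, and its log2 fold change in ETS1-Low against RFP was 0.35 ± 0.07 (adjusted p = 3.28e-05) by edgeR but 0.02 (adjusted p = 0.812 by limma) from the FPKM values. LAMA5 had 49.97 ± 3.94 CPM in RFP, 61.8 ± 3.52 in ETS1-Low and 50.6 ± 2.45 in ETS1-High, and its value was 0.31 ± 0.06 (adjusted p = 0.000228) by edgeR but -0.01 (adjusted p = 0.942) from FPKM. Between the ETS1 groups LAMA4 was at -0.36 ± 0.07, adjusted p = 4.41e-05, and LAMA5 at -0.29 ± 0.06, adjusted p = 0.000571, and neither was a call from FPKM (-0.12 and -0.19). Neither was called in ETS1-High against RFP.

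LAMB2 and LAMC1 were the other abundant chains, and both were lower in the ETS1 groups. LAMB2, the beta chain of kidney and synapse laminins, had 87.95 ± 3.65 CPM in RFP, 64.3 ± 3.25 in ETS1-Low and 79.3 ± 2.60 in ETS1-High. It fell by 0.15 ± 0.04 (adjusted p = 0.00023) in ETS1-High and 0.45 ± 0.04 (adjusted p = 3.15e-15) in ETS1-Low by edgeR. LAMC1, the gamma chain of most laminins, had 267 ± 4.37 CPM in RFP, 227 ± 1.51 in ETS1-Low and 191 ± 6.74 in ETS1-High. LAMC1 fell by 0.48 ± 0.03 (adjusted p = 4.12e-20) in ETS1-High and 0.23 ± 0.03 (adjusted p = 1.15e-09) in ETS1-Low. Between the ETS1 groups LAMB2 was higher in ETS1-High (0.30 ± 0.04, adjusted p = 1.4e-09) and LAMC1 lower (-0.25 ± 0.03, adjusted p = 5.02e-10). LAMC3, a gamma chain of brain and testis, had 28, 35 and 34 counts in the RFP libraries, 6, 13 and 13 in the ETS1-Low libraries, and 15, 23 and 13 in the ETS1-High libraries. It fell in ETS1-Low by 1.38 ± 0.34 (adjusted p = 0.000301) by edgeR, where its neighbours had a median of -0.56. That call was lost with unfiltered FPKM values (-0.16, adjusted p = 0.0646 by limma). Its ETS1-High call (-0.77 ± 0.31, adjusted p = 0.0247) was absent with the DESeq2 Wald test (adjusted p = 0.0702) and without RFP replicate 2 (-0.69) or 3 (-0.74) or ETS1-High replicate 1 (-0.74) or 3 (-0.58).

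For several chains the neighbouring genes had a median away from 0. ITGA4, ITGA6 and ITGAV lie on chromosome 2, where the median log2 fold change of expressed genes within 10 Mb on either side was 0.67, 0.55 and 0.71 in ETS1-High and 0.40, 0.34 and 0.46 in ETS1-Low, over 78, 71 and 51 genes. ITGAV at 0.25 and ITGA6 at -0.95 were below their neighbours in ETS1-High, and ITGA4 was far above. The neighbourhood medians of LAMA1 were 0.59 for ETS1-High and 0.57 for ETS1-Low. In ETS1-Low the median was -0.56 over 198 genes around LAMC3, which itself fell by 1.38. It was -0.39 around ITGA1, -0.36 around ITGA2 and 0.31 around ITGA11. The part of these neighbourhoods in the values of the chains was not tested.

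**Figure D4:**
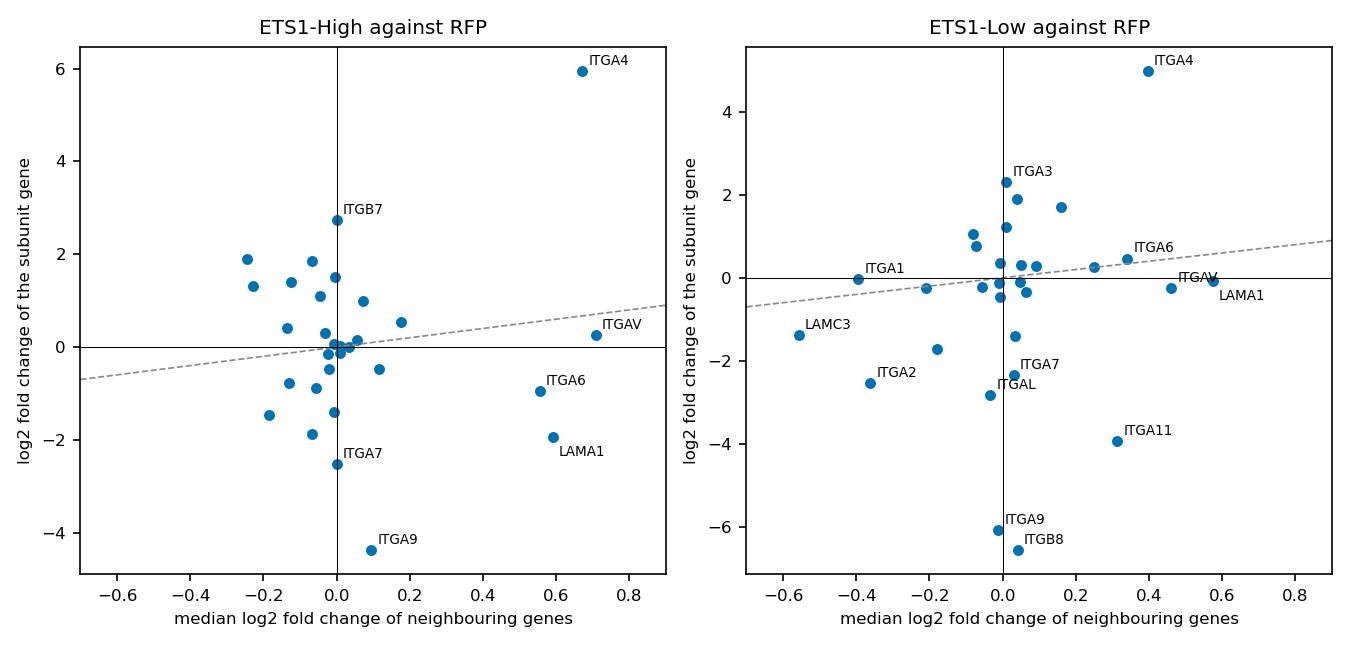
Log2 fold change of tested chains (y axis) against the median of expressed genes within 10 Mb on either side (x axis), for ETS1-High and ETS1-Low against RFP, with a dashed line of equality. The medians of the chromosome 2 chains lie between 0.34 and 0.71, and ITGA4, at 5.95 in ETS1-High, is far above the line.

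The genes listed as integrin adaptors, which include kinases such as PTK2 and SRC and small GTPases such as RAP1A, were called higher more often than lower. Of 31 listed adaptors 30 were tested, and 21 were called higher and 7 lower in ETS1-High against RFP, beside 37% and 37.2% of all genes. Their median log2 fold change was 0.29 beside -0.01 over all genes. In ETS1-Low 15 were higher and 9 lower, beside 37.9% and 36.2%, with a median of 0.15. ETS1-High against ETS1-Low had 19 higher and 7 lower, beside 29.9% and 29.3%. The adaptor with the largest change in ETS1-High was PARVG, a parvin, which fell by 4.97 ± 0.23 (adjusted p = 1.33e-25) by edgeR, 31.3-fold, and was at -5.59 ± 0.25 (adjusted p = 4.51e-26) in ETS1-Low. It had 215, 285 and 246 counts in the RFP libraries, 6, 3 and 4 in the ETS1-Low libraries, and 9, 7 and 5 in the ETS1-High libraries, a mean under the 100 counts required of the other genes named here, and was chosen after its values were seen. Of the adaptors above that limit, the 4 with the largest changes in ETS1-High were all higher. FERMT1 and FERMT3, kindlins that activate integrins, rose by 4.13 (adjusted p = 1.4e-44) and 1.97 (adjusted p = 3.45e-19) by edgeR. FERMT1 had 2.20 ± 0.262 CPM in RFP, 34.6 ± 1.81 in ETS1-Low and 38.5 ± 0.588 in ETS1-High. LIMS2, a partner of integrin-linked kinase, had 2.07 ± 0.0813 CPM in RFP, 5.49 ± 0.393 in ETS1-Low and 27.9 ± 1.69 in ETS1-High and rose at each step. TNS3, a tensin, had 22.6 ± 1.10 CPM in RFP, 22.8 ± 0.443 in ETS1-Low and 112 ± 7.60 in ETS1-High, so that it was called in ETS1-High (2.31 ± 0.04, adjusted p = 1.75e-33) and not in ETS1-Low (0.02 ± 0.05, adjusted p = 0.792). FERMT1 was a call in both ETS1 groups, with 3.97 in ETS1-Low.

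Integrin ligands other than laminins were called lower more often than higher in ETS1-Low against RFP. Of 30 listed ligands 23 were tested, and 4 were called higher and 16 lower in ETS1-Low against RFP, beside 37.9% and 36.2% of all genes. Their median log2 fold change was -0.47. In ETS1-High 8 were higher (34.8%) and 10 lower (43.5%), beside 37% and 37.2% of all genes, with a median of -0.12. The FPKM values turned that order, with 6 higher and 5 lower of 13 tested by limma. In ETS1-High against ETS1-Low 12 were higher and 4 lower, beside 29.9% and 29.3%, and 9 of the calls were at least 2-fold, all higher in ETS1-High, beside 6.05% of all genes. CYR61 (now CCN1), a matrix protein that binds ITGAV integrins, rose at each step with 28.8 ± 0.700 CPM in RFP, 84.5 ± 4.88 in ETS1-Low and 218 ± 8.88 in ETS1-High. TGFB1, whose latent form is a ligand of ITGB8 and ITGB6 integrins, had 73.7 ± 2.10 CPM in RFP, 288 ± 4.91 in ETS1-Low and 225 ± 9.20 in ETS1-High and rose in both ETS1 groups (1.61 ± 0.03, adjusted p = 1.04e-40 in ETS1-High by edgeR). THBS1, thrombospondin, had 6.90 ± 0.997 CPM in RFP, 0.346 ± 0.0536 in ETS1-Low and 1.94 ± 0.356 in ETS1-High, and FBLN5, an elastic fibre protein, had 17.5 ± 0.713 CPM in RFP, 2.05 ± 0.234 in ETS1-Low and 4.50 ± 0.168 in ETS1-High. THBS1 and FBLN5 fell in both ETS1 groups, and both were lower in ETS1-Low than in ETS1-High.

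The basement membrane partners of laminins were called in both directions. Of 29 listed genes 27 were tested, with 15 called higher and 10 lower in ETS1-High against RFP, beside 37% and 37.2% of all genes. In ETS1-Low 14 were higher and 11 lower, beside 37.9% and 36.2%. Comparing the ETS1 groups, 11 were higher and 15 lower in ETS1-High, beside 29.9% and 29.3%. The median log2 fold changes were 0.19, 0.39 and -0.11. COL4A1 and COL4A2, the chains of the collagen IV found in nearly all basement membranes, fell at each step. COL4A1 had 46.96 ± 0.214 CPM in RFP, 14.5 ± 1.03 in ETS1-Low and 4.84 ± 0.0915 in ETS1-High and fell by 3.28 ± 0.06 (adjusted p = 5.34e-43) in ETS1-High by edgeR. COL4A2 had 103 ± 2.06 CPM in RFP, 24.9 ± 1.21 in ETS1-Low and 8.85 ± 0.605 in ETS1-High and fell by 3.55 ± 0.05 (adjusted p = 4.44e-49). COL4A5, a chain of the collagen IV of kidney and lung, had 2263, 2394 and 2395 counts in the RFP libraries, 1, 0 and 0 in the ETS1-Low libraries, and 3, 5 and 3 in the ETS1-High libraries. Nearly all of its reads came from RFP (adjusted p = 2.24e-48 in ETS1-High by edgeR). COL4A3, which assembles with COL4A5, had 2.33 ± 0.332 CPM in RFP, 5.16 ± 0.282 in ETS1-Low and 18.6 ± 0.512 in ETS1-High and rose by 3.00 ± 0.09 (adjusted p = 6.35e-34) in ETS1-High.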

How the data were processed

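mRNA sequencing of 9 TC-32 libraries was analysed. The authors deposited RSEM expected counts per gene, which are estimated counts that divide shared reads, and FPKM values, per the file headers. The submitters' processing notes list cutadapt 4.4, STAR 2.7.3, featureCounts, Subread 2.0.3, limma 3.38.3 and GRCh38. The RSEM version, the annotation and strand use in counting are not given in the sources used here. Libraries were made with a stranded kit, per the labels' protocols. Groups came from the sample titles, and columns were matched to libraries by name, with 0 left over.

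After rounding to whole numbers, expected counts were tested with edgeR 4.0.16 in R 4.3.3 (TMM, filterByExpr by group, robust quasi-likelihood test), all 9 libraries in 1 fit, and Benjamini-Hochberg adjustment over 17235 genes. The scripts were tested on simulated data. Replicate libraries differed beyond sampling noise (chi-square per gene 2.66 to 5.19 over 9 pairs), so none was treated as a duplicate deposit, which does not show that they came from separate cultures. FPKM values were used for levels between genes. For groups with no library above 3 counts, ratios of pooled counts with exact 95% intervals are given, and against 0 a bound with a floor of 3 counts. Positions and neighbours are from GENCODE 44 on GRCh38, matched by gene identifier for 99.2% of tested genes. Neighbours within 10 Mb on either side needed a mean CPM above 2 and at least 20 genes.

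The chains, the 3 gene lists and the markers were chosen with earlier results of these data known. Each chain called at least 2-fold in some comparison is given by library, and the other chains are summarised. The result of 1 such chain is not reported here, though the counts of chains include it. From each list up to 4 genes are named, those with the largest change in ETS1-High against RFP among calls with a mean of at least 100 counts. Beyond these, the ligands FN1, VCAM1 and TNC are given with their receptor chains. Roles of the alpha chains are textbook groupings. Alternatives were DESeq2 1.42.0 size factors and Wald test, other count filters, a replicate block, fits of only the groups compared, each library left out, and limma 3.58.1 on log2(FPKM + pseudocount) with a pseudocount of 1 (also without the filter on a mean of 1 FPKM) or 0.1.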

Additional observations from a re-analysis of the deposited data

Results flagged for a closer look

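The 5 chains below were chosen for calls against RFP in opposite directions in the ETS1 groups. A difference between those groups follows from that choice, so the differences are given as a description with no test. On the log2 scale ITGA2 differed by 3.86 between ETS1-High and ETS1-Low, with 1.32 and -2.54 against RFP. ITGA6 differed by -1.42, with -0.95 and 0.46, and ITGB2 by 0.88, with 0.53 and -0.35. ITGAV differed by 0.51, with 0.25 and -0.25. Its ETS1-High call was lost with the FPKM values (0.09, adjusted p = 0.151 by limma), and it lay below the median of its neighbours in both groups, by 0.46 and 0.71. ITGB8 differed by a fitted 8.41, a size that depends on the prior count because ETS1-Low held 1 read.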

How the results depend on the processing

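The labels give the replicate numbers no shared culture or day. Same-numbered libraries deviated together with r of -0.09 to 0.11 over 9 pairs, and pairs with different numbers with r of -0.14 to 0.09. The largest r was that of RFP 2 with ETS1-Low 2, and 1 of 9 libraries was closest to its own number in both other groups. With the replicate number as a block, 24, 25 and 24 chains were called in ETS1-High against RFP, ETS1-Low against RFP and ETS1-High against ETS1-Low, and no call of a chain changed. Of 1568 values of single chains under 18 alternatives, 1467 kept direction and call, 61 lost the call, 10 gained one and 30 changed sign. The count of chains called ran from 22 to 26, 24 to 26 and 22 to 25 with 1 library left out, and from 14 to 16, 15 to 16 and 8 to 10 for calls of at least 2-fold. At least 10 counts in every library left 22 chains tested and 8, 8 and 4 such calls. FPKM values with a pseudocount of 1 left 19 chains tested, 12, 15 and 12 called and 5, 6 and 3 called at least 2-fold, with 11, 12 and 10 ligands called. A pseudocount of 0.1 gave the same counts of chains and ligands called, and 7, 7 and 4 at least 2-fold. Without the FPKM filter 5, 6 and 3 were called at least 2-fold, and 14 chains were called between the ETS1 groups. That setting lost the ETS1-High calls against RFP of ITGA10, ITGA11, ITGAV, ITGB1, ITGB7, LAMA1 and LAMC3. In ETS1-Low against RFP it lost those of ITGA10, ITGAL, ITGB7, LAMA2, LAMA4 and LAMC3. Between the ETS1 groups the calls it lost included those of ITGA10, ITGA11, ITGA2B, ITGA7, ITGAL, ITGB4, LAMA1, LAMA4 and LAMA5. Sign changes against RFP in ETS1-High were ITGB4 (-0.17 with pseudocount 1, with or without the filter, and -0.25 with 0.1), LAMA3 (-0.00026 with pseudocount 1), LAMA5 (-0.20 with pseudocount 1, -0.21 with 0.1, -0.0028 with at least 10 counts, and -0.038 and -0.0016 without RFP or ETS1-High replicate 1, in a range of -0.038 to 0.074 with 1 library left out) and LAMA4 (0.0033 with no count filter, and 0.014 to 0.078 without RFP replicate 2 or ETS1-High replicate 1 or 2, in a range of -0.068 to 0.078). In ETS1-Low they were ITGB4 (-0.35 and -0.57 with pseudocounts 1 and 0.1), LAMA5 (-0.0080 and -0.0081), LAMB3 (0.024 without the FPKM filter) and LAMA1 (0.13 and 0.24 without RFP or ETS1-Low replicate 2, in a range of -0.39 to 0.24). Between the ETS1 groups they were ITGAE (0.011 and 0.012 with FPKM, 0.0100 without ETS1-High replicate 2, in a range of -0.098 to 0.0100) and LAMA2 (-0.087 without the FPKM filter, -0.0045 without ETS1-Low replicate 1, in a range of -0.0045 to 0.42). Among these, ITGB4 in ETS1-High and LAMA5 in ETS1-Low were calls in the count test, and the cause was not tested. Chains with few counts are limited by depth, and their fold changes by the prior count.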
